A study of Mus musculus with 2 samples.

Results

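The genes of glutamate transport and metabolism described here were 7 of 21938 protein-coding genes: Slc17a7, Slc17a6 and Slc17a8, Glul and Glud1, and Slc1a1 and Slc38a1. They were chosen by name, and each was read in the GENCODE M21 annotation of the mouse genome build mm10. DNase-seq, in which the nuclease DNase I cuts chromatin that it can reach, was read in 1 group of 2 libraries, biological replicates 1 and 2, from female B6CASTF1/J mice at 25 days of age. The animals are hybrids of a laboratory strain with CAST, a strain derived from wild mice. The tissue type was given as a layer of hippocampus, with the layer unnamed, and the description as hippocampus. Both libraries carried the same donor entry, and whether they came from separate animals was not stated, so their spread may partly be technical. There was no second condition and therefore no test, and every value describes these 2 libraries.

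Glutamate is the main excitatory transmitter of the hippocampus. Vesicular transporters load it into synaptic vesicles, carriers in the plasma membrane of neurons and astrocytes take it back up after release, and astrocytes turn it into glutamine, which neurons import and use to make glutamate again. Mitochondrial glutamate dehydrogenase links the same pool to the citric acid cycle. In this cycle Slc17a7, Slc17a6 and Slc17a8 encode the vesicular transporters VGLUT1, VGLUT2 and VGLUT3. Glul encodes glutamine synthetase, Glud1 glutamate dehydrogenase, Slc1a1 the neuronal glutamate and cysteine carrier EAAC1, and Slc38a1 a glutamine carrier of neurons.

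Each library had a stricter and a longer peak list. Every one of the 61466 stricter peaks of replicate 1 and 50379 of replicate 2 held a base whose cut rate had a false discovery rate (FDR) no higher than 0.001. Signal is the peak height as deposited, in a scale that was not stated. The libraries were not rescaled, and replicate 1 was the higher one at 94.9% of the 21904 regions that both libraries shared outside promoters. A promoter peak is a peak within 500 bp of any annotated start of a gene, and a promoter is called open when the stricter lists of both libraries have one. Depth is unknown, because the files hold no tag counts. In bulk tissue, fewer cells with an accessible site and less access per cell cannot be told apart.

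The promoters of Glul, Glud1 and Slc1a1 were open, those of Slc17a7, Slc17a6 and Slc38a1 had a stricter peak in replicate 1 only, and Slc17a8 had no promoter peak in any list. That is 3 of 7 members open, beside 54.2% of all protein-coding genes, 3 of 7 with a peak in replicate 1 only, beside 6.00%, and 1 of 7 without a peak in any of the 4 lists, beside 34.4%. In the longer lists, 6 of 7 members had a promoter peak in both libraries, beside 59.7% of all genes. Taken by itself, replicate 1 had a promoter peak at 6 of 7 members in the stricter list (60.2% of all genes) and at 6 in the longer list (64.9%). Replicate 2 had one at 3 of 7 in the stricter list (54.8%) and at 6 in the longer list (60.4%), and 0 members had a stricter peak in replicate 2 only (0.565%). When the window was widened to 2000 bp, 5 of 7 were open, beside 57.8% of all genes. By role, both enzymes were open, 1 of 2 plasma membrane carriers was, and 0 of 3 vesicular transporters were.

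The promoters that lacked a stricter peak in replicate 2 were also the weakest of the members in replicate 1. Highest promoter signal in replicate 1 was 5.15 for Glud1, 4.12 for Glul, 3.21 for Slc1a1, 1.76 for Slc17a6, 1.71 for Slc17a7 and 1.12 for Slc38a1, in that order. The median over these 6 members was 2.49, and the median over all 13206 genes with a replicate 1 peak was 3.93 (interquartile range 2.13 to 5.95). Among those genes Glud1 stood at percentile 66.4, Glul at 52.3 and Slc1a1 at 39.6, and the 3 weaker members lay at percentile 19.9 or below. When genes with a replicate 1 peak were ranked by that signal into 5 bins, 58.1% of the lowest bin, which held Slc17a7 and Slc38a1, were open in both libraries. The next bin, which held Slc17a6 at its lower edge and Slc1a1, was open at 93.3%, the bin of Glul at 99% and the bin of Glud1 at 99.7%.

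**Figure D1:**
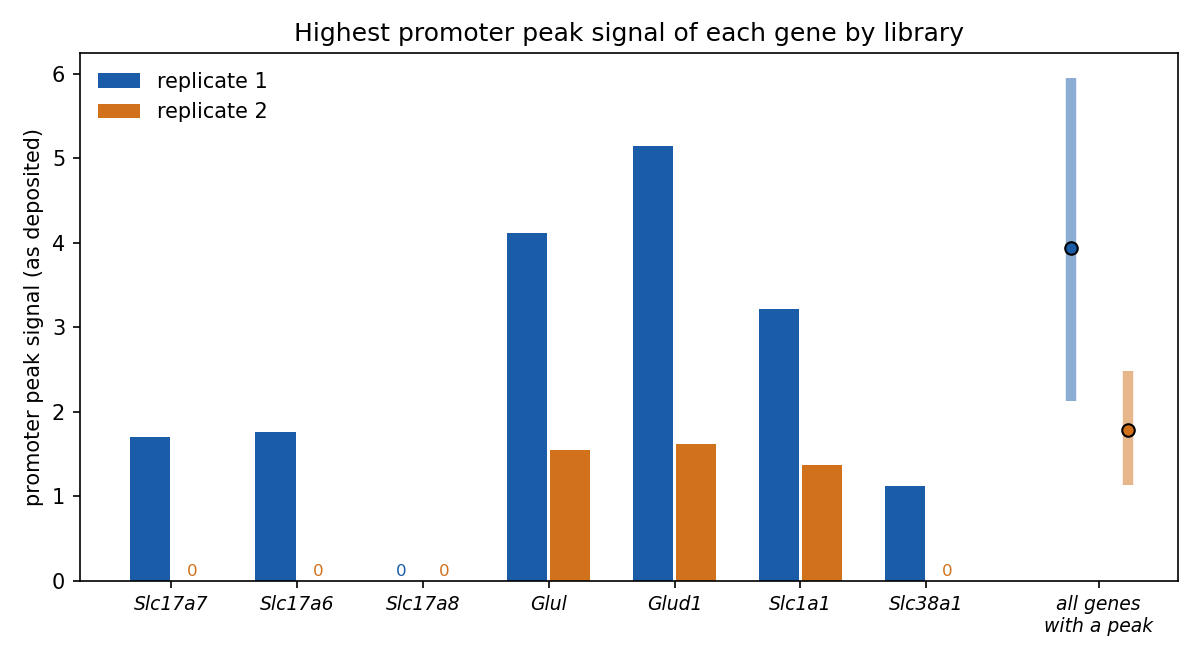
Highest stricter-list promoter signal (y axis, as deposited) of each of the 7 genes in replicate 1 (blue) and replicate 2 (orange), where 0 stands for no peak; at the right, points and bars give the median and interquartile range over all genes with a peak. Glul, Glud1 and Slc1a1 have a bar in both libraries, and Glud1 is the highest of the 7 in each, at 5.15 and 1.62.

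Where both libraries had a peak, replicate 1 was the higher one, as at most genes. Replicate 2 gave 1.62 for Glud1, 1.55 for Glul and 1.37 for Slc1a1, so the order of the 3 was the same as in replicate 1. Replicate 1 over replicate 2 was 3.18 for Glud1, 2.65 for Glul and 2.34 for Slc1a1, and the median over all 11890 open genes was 2.37 (interquartile range 1.95 to 2.89). Glud1 lay above that range and the other two within it.

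The vesicular transporter genes come first in detail. The 3 promoters are printed below to set side by side one with footprints shared by the libraries (Slc17a6), one with footprints in a single library (Slc17a7) and one with none (Slc17a8). They run from 250 bases before to 50 bases after the RefSeq start on GRCm38.p6, 5′ to 3′ on the strand of the gene, and capitals mark bases inside footprints of both libraries. Footprints are short stretches within open chromatin that the authors called as protected from cutting. The genome sequence is that of the laboratory reference strain, so CAST alleles of these hybrid mice may differ.
Slc17a7, chr7:45163671-45163970, plus strand: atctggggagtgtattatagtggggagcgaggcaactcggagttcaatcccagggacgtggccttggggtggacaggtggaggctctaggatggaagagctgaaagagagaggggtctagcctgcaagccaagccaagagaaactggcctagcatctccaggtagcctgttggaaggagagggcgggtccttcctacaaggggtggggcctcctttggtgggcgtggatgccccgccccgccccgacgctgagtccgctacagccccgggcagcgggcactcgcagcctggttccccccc
Slc17a6, chr7:51621580-51621879, plus strand: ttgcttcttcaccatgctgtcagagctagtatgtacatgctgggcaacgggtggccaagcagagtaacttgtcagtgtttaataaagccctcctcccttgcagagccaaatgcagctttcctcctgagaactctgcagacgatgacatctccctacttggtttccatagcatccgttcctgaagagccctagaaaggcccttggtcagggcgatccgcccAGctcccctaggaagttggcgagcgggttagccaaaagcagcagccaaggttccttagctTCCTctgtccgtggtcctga
Slc17a8, chr10:89621200-89621499, minus strand: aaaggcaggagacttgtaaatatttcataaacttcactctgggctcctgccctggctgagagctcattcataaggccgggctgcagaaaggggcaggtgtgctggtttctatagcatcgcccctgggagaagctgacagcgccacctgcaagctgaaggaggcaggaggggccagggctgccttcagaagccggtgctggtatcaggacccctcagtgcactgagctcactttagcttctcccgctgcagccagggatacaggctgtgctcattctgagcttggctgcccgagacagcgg

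Slc17a7 (ENSMUSG00000070570.5, chromosome 7, 45163949 to 45176142, plus strand), the vesicular transporter of most cortical and hippocampal excitatory neurons, had weak promoter peaks in replicate 1 alone. At its outermost start the peak ran from -145 to 371 bp with a signal of 1.22, overlapping a second one of 1.07. The highest promoter value, 1.71, came from a peak 5652 to 5831 bp downstream, next to the starts of 2 retained-intron transcripts inside the gene. Replicate 2 had no peak of either list at the outermost start, and its longer-list value of 0.855 also belonged to the internal starts. In replicate 1, 517 of the bases within 500 bp of the outermost start reached an FDR of 0.001 or less, with a lowest FDR of 2.51e-06. In replicate 2 there were 0, and no base of that window was listed up to an FDR of 0.05. The promoter windows of Slc17a7 held 10 footprints in replicate 1 and 0 in replicate 2.

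The strongest element of the 7 genes lay just upstream of Slc17a7. A shared intergenic region at chr7:45162121-45162500, from -1828 to -1449 bp relative to the outermost start, had a signal of 8.14 in replicate 1 and 2.84 in replicate 2. It stood at percentiles 94.9 and 99 among the 21904 distal regions, which are shared regions more than 500 bp from every start of protein-coding and long noncoding RNA genes. Its lowest FDR was 8.74e-66 in replicate 1 and 1.30e-13 in replicate 2, and 5 footprints were shared there. Its signal was above that of every promoter peak of the 7 genes in both libraries. The middle 300 bases of its plus strand are printed below because they carry 67 bases inside footprints of both libraries, in capitals. The last of the 5 shared footprints, from -1490 to -1470 bp, runs past the printed end.
Slc17a7 upstream region, chr7:45162161-45162460, plus strand: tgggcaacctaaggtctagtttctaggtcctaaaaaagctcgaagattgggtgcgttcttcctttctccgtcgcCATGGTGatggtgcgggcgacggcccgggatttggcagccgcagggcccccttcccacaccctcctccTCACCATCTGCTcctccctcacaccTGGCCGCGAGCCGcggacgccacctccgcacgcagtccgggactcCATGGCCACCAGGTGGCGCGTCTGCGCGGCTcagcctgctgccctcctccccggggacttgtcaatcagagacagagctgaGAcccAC
The footprint run TCACCATCTGCT holds CATCTG, which is the E-box CAGATG read on the other strand, a sequence bound by neuronal basic helix-loop-helix factors. CAGATG was in 1 of the members' 15 distal regions, beside 24.4% of all distal regions, both read in 200 bp windows. The longest run holds CCACCAGGTGGC, a match to the core of the motif of CTCF, a protein that marks insulators and loop anchors.

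**Figure D2:**
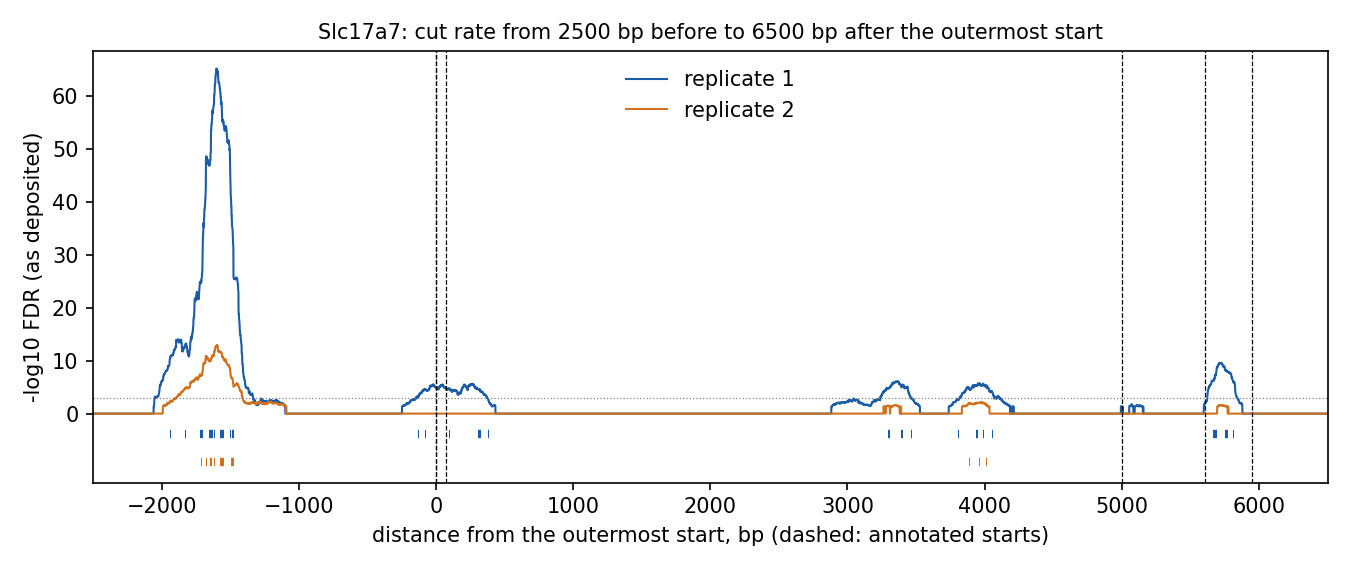
Minus log10 of the deposited FDR of the cut rate (y axis; 0 where no value is listed) around the outermost Slc17a7 start (x axis, bp from that start) in replicate 1 (blue) and replicate 2 (orange), with footprints as bars under 0, starts as dashed lines and an FDR of 0.001 as the dotted line. Both libraries peak in the upstream region, where the lowest FDR was 8.74e-66 and 1.30e-13, while replicate 2 shows nothing at the outermost start.

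Slc17a6 (ENSMUSG00000030500.6, chromosome 7, 51622006 to 51671119, plus strand), the vesicular transporter best known from thalamus, hypothalamus and brain stem, had 1 stricter promoter peak, from -245 to -26 bp, with a signal of 1.76 in replicate 1. The RefSeq start lies at -176 bp, inside that peak. In replicate 2 the longer list had a peak of 0.653 from -185 to 131 bp, at the same place. The lowest FDR near the start was 1.13e-08 in replicate 1 and 0.00202 in replicate 2, so replicate 2 missed the limit of 0.001 there. Replicate 1 had 288 bases at an FDR of 0.001 or less and replicate 2 had 0. The promoter windows held 7 footprints in replicate 1 and 5 in replicate 2, of which 2 were shared. Around the gene only 1 distal region was shared, in an intron 40495 bp from the start, and with signals of 0.412 and 0.338 it stood at percentiles 0.502 and 1.21 of all distal regions.

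Slc17a8 (ENSMUSG00000019935.16, chromosome 10, 89574020 to 89621253, minus strand), known in hippocampus from a sparse set of interneurons, was without a promoter peak at both of its annotated starts in all 4 lists. No base within 500 bp of its outermost start was listed up to an FDR of 0.05, and there were 0 footprints in either library. The single shared distal region near it lay at chr10:89630181-89630380, from -9127 to -8928 bp, with nearly equal signals of 1.09 in replicate 1 and 1.11 in replicate 2. Of the members' 15 distal regions, 13 were higher in replicate 1, beside 94.9% of all distal regions, and this was one of the other two. One footprint there was shared.

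**Figure D3:**
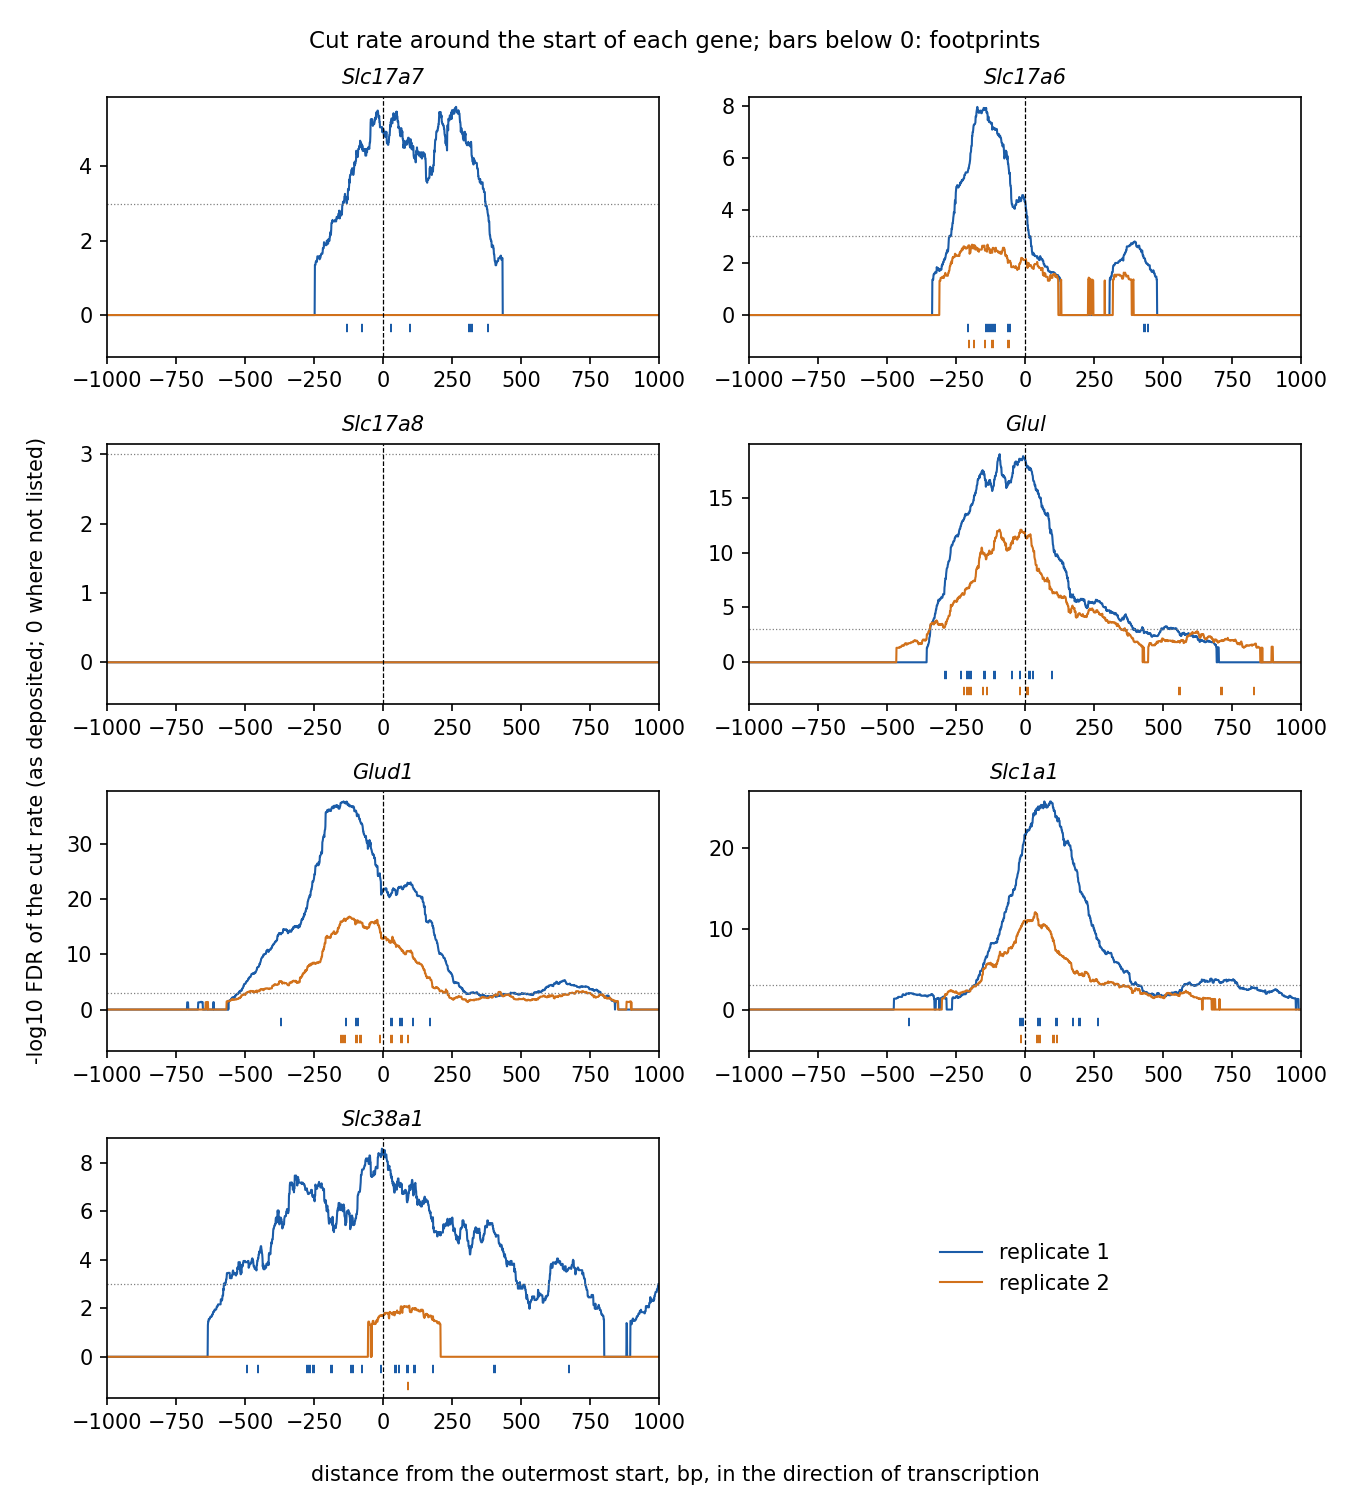
Minus log10 of the deposited FDR of the cut rate (y axes, each on its own scale; 0 where not listed) within 1000 bp of the outermost start of each gene (x axes, bp in the direction of transcription) in replicate 1 (blue) and replicate 2 (orange), with footprints as bars under 0 and an FDR of 0.001 as the dotted line. Glul, Glud1 and Slc1a1 pass the line in both libraries, Slc17a7, Slc17a6 and Slc38a1 in replicate 1, and Slc17a8 in neither.

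At Glul, Glud1 and Slc1a1 the cut rate passed an FDR of 0.001 in both libraries. Their 3 promoters are printed as those that were open in both libraries, with the same strand, build and use of capitals as above.
Glul, chr1:153899679-153899978, plus strand: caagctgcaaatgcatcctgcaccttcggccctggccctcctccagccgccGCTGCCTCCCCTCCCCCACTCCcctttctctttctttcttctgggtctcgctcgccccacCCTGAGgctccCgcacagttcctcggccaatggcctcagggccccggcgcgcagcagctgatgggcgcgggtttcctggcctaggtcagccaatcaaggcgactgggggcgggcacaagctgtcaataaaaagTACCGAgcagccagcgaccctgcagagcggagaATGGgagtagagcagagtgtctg
Glud1, chr14:34310477-34310776, plus strand: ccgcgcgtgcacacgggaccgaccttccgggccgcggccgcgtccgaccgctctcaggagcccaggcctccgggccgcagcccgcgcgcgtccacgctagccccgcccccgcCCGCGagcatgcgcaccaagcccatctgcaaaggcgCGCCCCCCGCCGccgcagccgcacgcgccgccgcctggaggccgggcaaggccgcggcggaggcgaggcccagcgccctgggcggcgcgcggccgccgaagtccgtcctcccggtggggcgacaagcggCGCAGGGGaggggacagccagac
Slc1a1, chr19:28834885-28835184, plus strand: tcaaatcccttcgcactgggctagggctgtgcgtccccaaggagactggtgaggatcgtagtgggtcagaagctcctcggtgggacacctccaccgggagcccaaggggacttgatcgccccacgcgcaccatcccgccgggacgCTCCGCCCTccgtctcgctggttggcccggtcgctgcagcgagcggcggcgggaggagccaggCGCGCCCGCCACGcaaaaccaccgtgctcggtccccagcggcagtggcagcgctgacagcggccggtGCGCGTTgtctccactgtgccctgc

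Glul (ENSMUSG00000026473.15, chromosome 1, 153899944 to 153909723, plus strand), the enzyme that makes glutamine from glutamate and in brain is found mainly in astrocytes, had its promoter peak from -263 to 136 bp in replicate 1 (4.12) and from -103 to -24 bp in replicate 2 (1.55). Bases at an FDR of 0.001 or less within 500 bp of the outermost start numbered 750 in replicate 1 and 702 in replicate 2. Lowest FDR was 1.05e-19 and 8.14e-13, reached within 1 base of each other at -92 and -93 bp. There were 10 footprints in replicate 1 and 9 in replicate 2, and 3 were shared. The longest of these spanned 24 bp from -215 to -192 bp and holds the first run of capitals in the printed sequence. The region also lies within 500 bp of starts of Teddm2, which runs the opposite way from 284 bp, and of Mir8114. Its signal therefore cannot be credited to 1 gene. A second shared region lay at chr1:153895021-153895220, in an intron of Teddm2 from -4923 to -4724 bp, with signals of 3.24 and 1.67 and 2 shared footprints. In replicate 2 this region was higher than the promoter, and in replicate 1 it was lower.

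Glud1 (ENSMUSG00000021794.16, chromosome 14, 34310727 to 34345265, plus strand), the mitochondrial enzyme that converts glutamate to 2-oxoglutarate, had the highest promoter signal of the 7 genes in each library. The peak ran from -246 to -47 bp in replicate 1 and from -266 to 153 bp in replicate 2. Bases at an FDR of 0.001 or less numbered 820 in replicate 1 and 739 in replicate 2, and the lowest FDR was 2.00e-38 and 1.45e-17. Shared footprints numbered 4, which was the most of the 7 promoters, and the upstream pair lay from -156 to -131 and from -103 to -89 bp. Shld2 starts at -234 bp on the other strand and falls in the same region, so here too the signal cannot be credited to 1 gene. The Glud1 promoter had a CpG observed to expected ratio of 1.04, at percentile 94.7 of 20150 RefSeq promoters. That of Slc1a1 was 0.863, of Glul 0.559, of Slc17a7 0.438, of Slc17a6 0.373 and of Slc17a8 0.279, and the median over all promoters was 0.588. The 3 vesicular transporters had the lowest ratios of the 6 genes with an entry in the RefSeq promoter table, each taken at the start nearest to the outermost one.

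Glud1 also had 3 shared distal regions. The strongest lay in an intron of Sncg, the gamma-synuclein gene, at chr14:34372761-34372940, with signals of 3.04 and 0.810 and 3 shared footprints. A region of 1.59 and 0.713 lay between genes, from 52414 to 52633 bp. The third, 548 to 789 bp into the gene in exonic sequence, had 0.868 and 0.533, and no footprint in either library.

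Slc1a1 (ENSMUSG00000024935.11, chromosome 19, 28835049 to 28913960, plus strand), which takes up glutamate and cysteine into neurons, had its promoter peak from -68 to 211 bp in replicate 1 (3.21) and from -88 to 151 bp in replicate 2 (1.37). Bases at an FDR of 0.001 or less numbered 595 in replicate 1 and 520 in replicate 2, and the lowest FDR was 1.49e-26 and 8.38e-13. Of 7 footprints in replicate 1 and 4 in replicate 2, 3 were shared, from -21 to -3, from 41 to 56 and from 110 to 118 bp. Within the gene, an intronic region at chr19:28902821-28903108, where the gene 4430402I18Rik also runs, had nearly equal signals of 1.13 in replicate 1 and 1.12 in replicate 2. Another intronic peak, 48172 to 48351 bp from the start, had 2.28 in replicate 1 with no peak in either list of replicate 2.

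Slc38a1 (ENSMUSG00000023169.15, chromosome 15, 96571418 to 96642913, minus strand), a sodium-coupled glutamine carrier, had the lowest promoter signal of the 6 members with a peak in replicate 1, and the broadest stretch past the threshold. Within 500 bp of the outermost start, 991 bases of replicate 1 were at an FDR of 0.001 or less, at percentile 97.4 of all genes, and 0 bases of replicate 2. The median over all genes was 234 bases in replicate 1 and 16 in replicate 2. In replicate 1 the breadth came from peaks of 1.12 from -547 to -148 bp and of 1.12 from -167 to 472 bp. Another peak, of 0.728, lay beyond that window, from 602 to 732 bp. The lowest FDR was 2.65e-09 in replicate 1 and 0.00772 in replicate 2. In replicate 2 the longer list had a peak of 0.668 from -54 to 208 bp. The promoter windows held 17 footprints in replicate 1 and 2 in replicate 2, and 1 was shared.

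Slc38a1 had 5 shared distal regions within 50 kb, more than 91.2% of genes, and none at a promoter. A pair of intergenic regions upstream lay close together, with signals of 2.26 and 0.930 in the nearer and 2.24 and 0.885 in the farther one. They are printed with the Glul region because in each a footprint shared by both libraries, in capitals, spans a match to the CTCF core.
Glul distal region, chr1:153895021-153895220, plus strand: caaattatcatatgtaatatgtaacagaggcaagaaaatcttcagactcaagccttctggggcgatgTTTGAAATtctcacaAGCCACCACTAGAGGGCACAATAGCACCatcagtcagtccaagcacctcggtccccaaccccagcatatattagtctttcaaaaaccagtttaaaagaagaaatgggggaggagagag
Slc38a1 nearer region, chr15:96666001-96666180, minus strand: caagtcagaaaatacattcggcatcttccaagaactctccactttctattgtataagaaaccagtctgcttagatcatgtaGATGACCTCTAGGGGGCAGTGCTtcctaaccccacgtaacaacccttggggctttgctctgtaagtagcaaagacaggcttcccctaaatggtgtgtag
Slc38a1 farther region, chr15:96666781-96666980, minus strand: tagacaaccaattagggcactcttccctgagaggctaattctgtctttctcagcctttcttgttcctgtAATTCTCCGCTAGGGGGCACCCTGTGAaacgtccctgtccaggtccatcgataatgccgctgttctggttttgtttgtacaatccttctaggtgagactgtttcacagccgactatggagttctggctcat
The matches are CCACTAGAGGGC near Glul, CCTCTAGGGGGC in the nearer and CCGCTAGGGGGC in the farther Slc38a1 region. The remaining regions of Slc38a1 had 2.63 and 0.563, 0.691 and 0.870, and 1.37 and 0.803. The last of these lay in exonic sequence, from 1573 to 1792 bp.

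The CTCF core was added to the motifs after the sequences had been read, and its counts are therefore a description. It occurred in 5 of the members' 15 distal regions, beside 21.4% of all 21904, and touched a shared footprint in 4 of 15, beside 20.3%. The fifth match, CCAGCAGAGGGC, lay 34694 to 34705 bp downstream of the Slc17a7 start in an intron of Ccdc155, and had a footprint in replicate 1 only. The core occurred in 0 of the members' promoter entries, beside 1.55% of all entries. Among the other 18 motifs, sought on both strands, the GC box GGGCGG was in 5 of the 8 RefSeq promoter entries of 6 members, which cover each of the 6 but Slc17a8, beside 47.8% of all 20150 entries. CAGATG was in 3 entries (Glud1 and the internal starts of Slc17a6 and Slc17a8, beside 14.3%), and GGACAG, one part of the RE1 element, the binding sequence of the neuronal gene repressor REST, in 3 (Slc17a7, Slc17a6 and Glud1, beside 22.6%). CCAAT was in 1, Glul, beside 37.8%.

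Over all 7 genes, 24 shared regions lay within the gene or 50 kb either side of it, 15 of them distal and 9 at promoters of the members or their neighbours. Each of the 7 had at least 1 distal region, beside 72.4% of all genes. The median number was 1 for the members (interquartile range 1 to 3) and 1 for all genes (0 to 3). Slc17a7 and Glud1 had 3 each, Slc38a1 5, and the others 1. Within the gene itself, 4 of 7 had a distal region (Slc17a6, Glud1, Slc1a1 and Slc38a1, 1 each), beside 25.7% of all genes. Gene length was not taken into account in this share. The regions within Glud1 and Slc38a1 were exonic and began only 548 and 1573 bp from the outermost start. Of the 15, 8 were intergenic, 5 intronic and 2 exonic. Their median signal was 1.59 in replicate 1 and 0.870 in replicate 2, beside 1.98 and 0.855 over all distal regions. Footprints were shared in all but 4 of the 15, and 81.1% of all distal regions had a shared footprint. In promoter windows, 5 of 7 members had a shared footprint, all but Slc17a7 and Slc17a8, beside 49.6% of all genes.

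**Figure D4:**
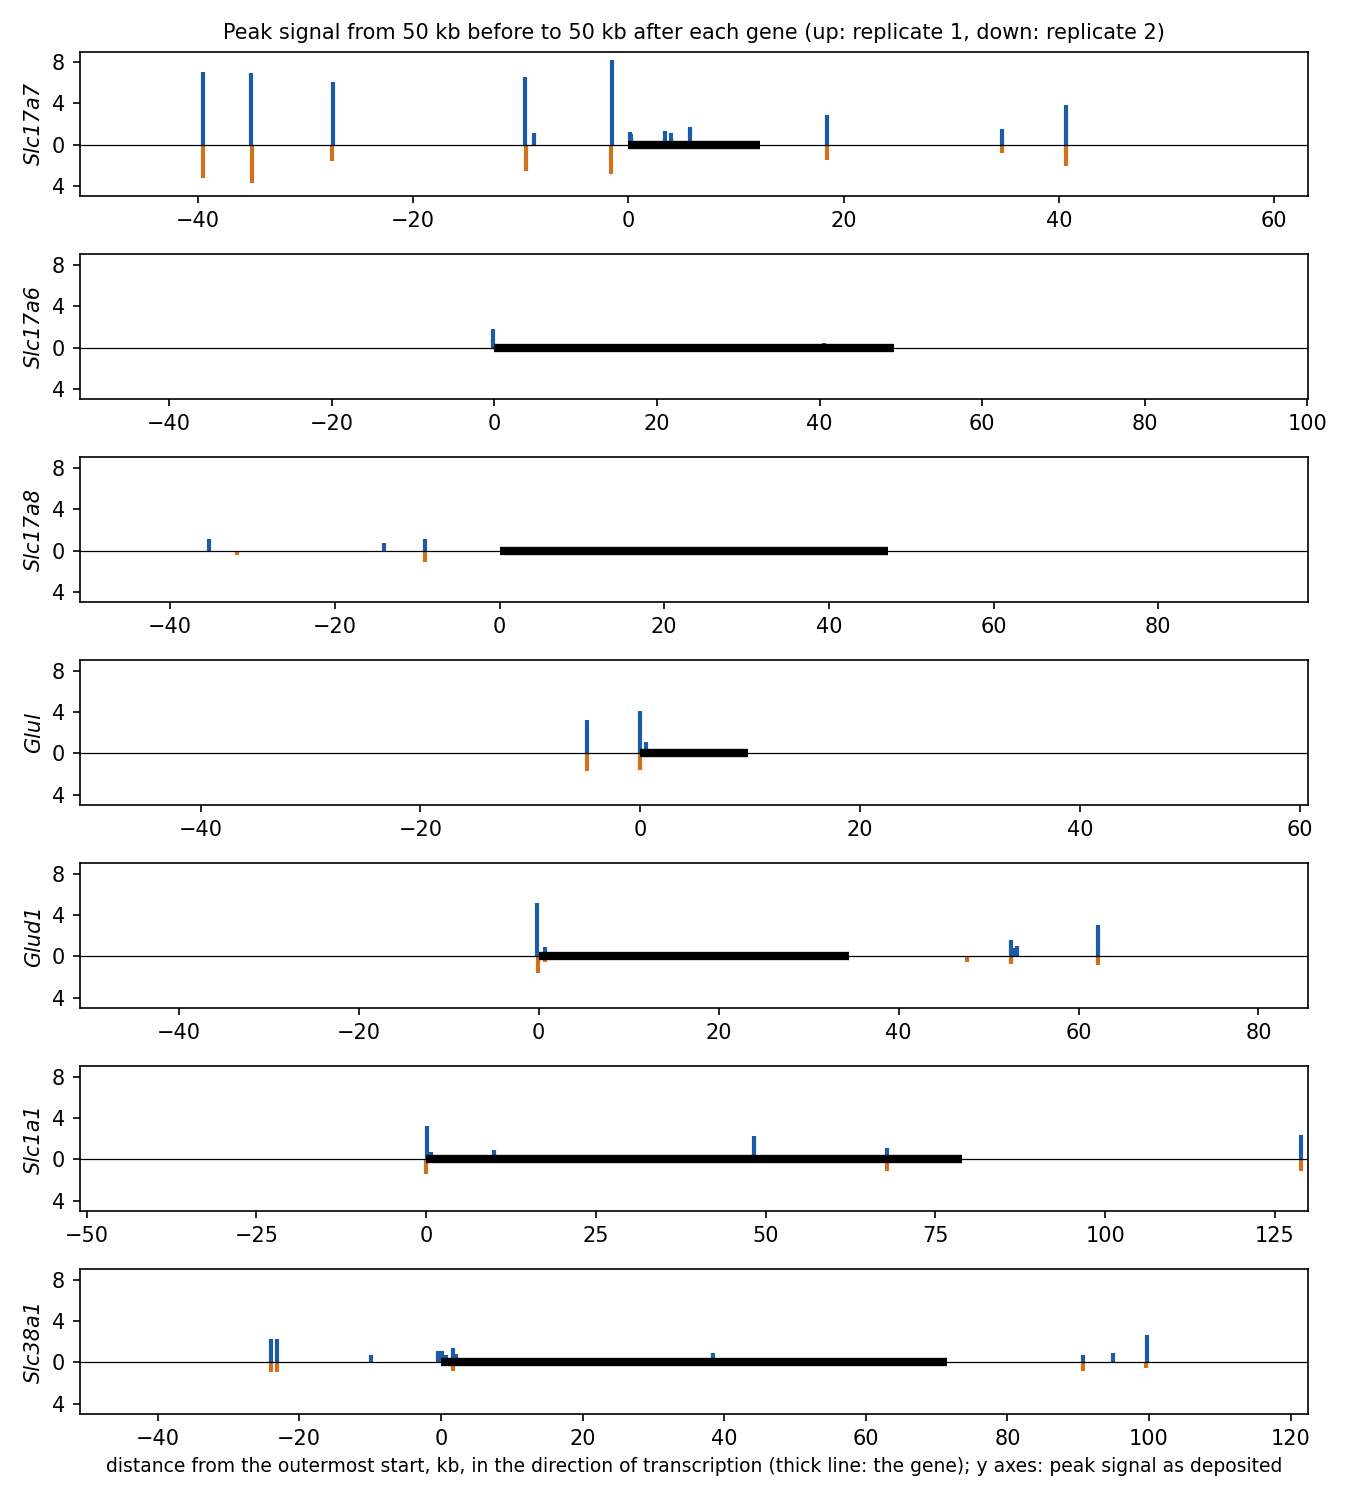
Stricter-list peaks within each gene and 50 kb either side of it (x axes, kb from the outermost start in the direction of transcription, thick line the gene), with signal in replicate 1 drawn upward and in replicate 2 downward (y axes, as deposited). Slc17a7 has the most peaks, 14 in replicate 1 and 8 in replicate 2, and Slc17a6 the fewest, 2 and 1.

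Of the 46 stricter peaks of replicate 1 in these surroundings, 22 (47.8%) touched no stricter peak of replicate 2, beside 37.1% of all stricter peaks of replicate 1. Of these 22, 10 (45.5%) met a longer-list peak of replicate 2, beside 45.8% over the genome. Of the 26 stricter peaks of replicate 2, 2 (7.69%) touched no stricter peak of replicate 1, beside 24.0% of all, and 0 of the 2 met a longer-list peak of replicate 1. Slc38a1 had 7 of the 22 and Slc17a7 had 6. Inside Slc17a7, intronic peaks of 1.28 and 1.16 in replicate 1 met longer-list peaks of 0.863 and 0.938 in replicate 2.

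Within 50 kb of Slc17a7, 7 of 11 neighbours were open, a share near the 54.2% of all protein-coding genes. Gm45713 and Flt3l were open through the same region, as were Aldh16a1 and Pih1d1, so the 7 are not all separate regions. Among the open neighbours, the ribosomal protein gene Rpl13a had 6.88 in replicate 1 and 3.74 in replicate 2, the highest neighbour value of replicate 2. The single neighbour of Slc17a6, Ano5, had a peak in replicate 1 only, of 0.640. Beside Slc38a1 lay its paralog Slc38a2, another glutamine carrier, which was open at 3.91 and 1.45. The genes with promoter signals most like those of the open members, by distance on the log2 scale over the 2 libraries, were Teddm2 and Magi2 for Glul, Shld2 and Gltp for Glud1, and Msh6 and T2 for Slc1a1. Teddm2 and Shld2 were at distance 0, since they share the region itself.

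Other genes of the pathway were read from a list of 34, Glud1 included, of which 20 were open, 4 had a peak in replicate 1 only, 1 in replicate 2 only and 9 had none in the stricter lists. That is 58.8% open, beside 54.2% of all genes. The groups differed in their counts. Of 11 enzymes 10 were open, all but Gpt, and Aldh18a1 (7.57 and 2.15), which starts proline synthesis from glutamate, and the glutaminase Gls2 (7.22 and 2.83) had the highest values in replicate 1. Mitochondrial carriers were open in 3 of 5, other plasma membrane carriers of glutamate and neutral amino acids in 3 of 7. Glutamine carriers were open in 1 of 3 and genes between glutamate and GABA in 2 of 6. For Slc17 family members other than the 3 vesicular transporters above it was 1 of 2. Gad1 and Gad2, which make GABA from glutamate, and Slc32a1, which loads GABA into vesicles, had no stricter peak. Abat (4.88 and 2.18) and Aldh5a1 (3.88 and 1.19), which break GABA down, were open. The median over the 20 open genes was 4.06 in replicate 1 and 1.67 in replicate 2.

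**Figure D5:**
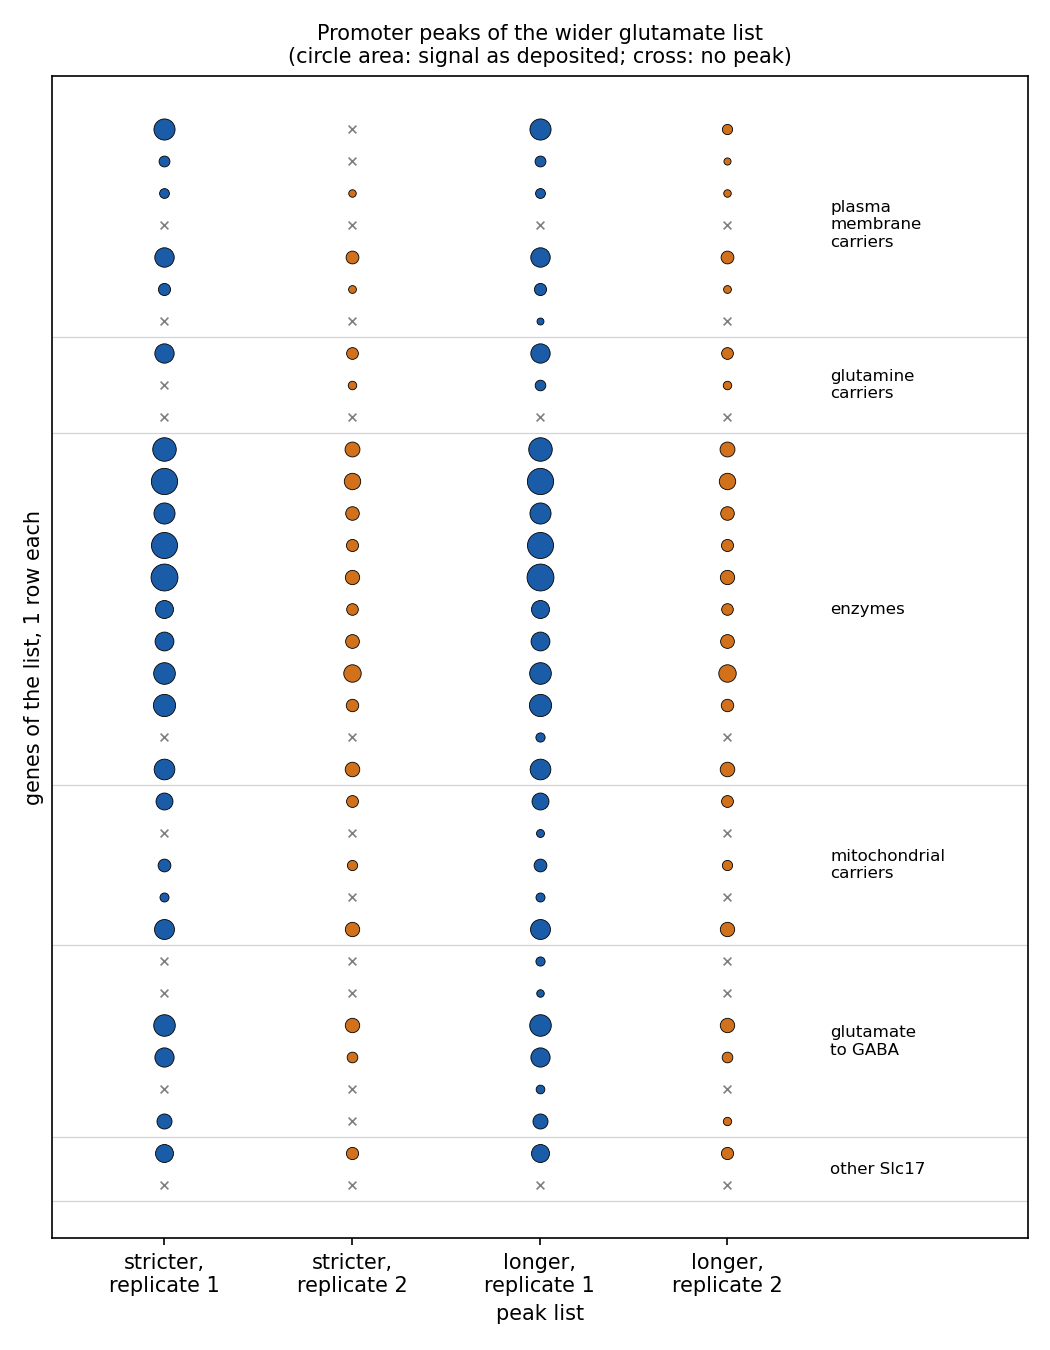
Promoter peaks of the 34 genes of the wider list (1 unnamed row per gene, by group) in the stricter and longer lists of replicate 1 (blue) and replicate 2 (orange); circle area is the signal as deposited, and a cross marks no peak. In the enzyme group 10 of 11 rows are filled in all 4 columns.

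The 2 glial glutamate carriers of the list, like Slc17a7, had a stricter peak in 1 library. Slc1a2, the main astrocytic glutamate carrier, had 4.67 in replicate 1 and no stricter peak in replicate 2, where the longer list gave 1.10. Slc1a3, the other astrocytic carrier, had 1.24 in replicate 1 and 0.533 in the longer list of replicate 2. Both belong to the list of 7 astrocyte markers, of which 1, Gfap, was open, 5 had a peak in replicate 1 only and Aqp4 had none in the stricter lists. The summed stricter signal of that list was 14.9 in replicate 1 and 1.58 in replicate 2, where it is that of Gfap alone because a missing peak counts as 0. In the longer lists the sums were 15.4 in replicate 1 and 4.58 in replicate 2. Whether the makeup of cells differed between the libraries was not tested.

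The labelled tissue was checked on marker lists. All 6 pan-neuronal markers were open, with a summed signal of 15.5 and 8.13, and 5 of 8 markers of hippocampal and forebrain excitatory neurons, with 22.4 and 10.9, beside 54.2% of all protein-coding genes. The second share, 62.5%, was near that of all genes. Of the other 3, 2 had a peak in replicate 1 only, and Prox1, a marker of dentate granule cells, had one in replicate 2 only. In the stricter lists, 0 of 7 interneuron, 0 of 5 oligodendrocyte, 0 of 5 microglia, 0 of 5 hindbrain and spinal cord markers and 0 of 5 markers of tissues outside the brain were open. Pvalb (1.54), Mbp (1.40) and En2 (1.01) had a peak in replicate 1 only.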

How the data were processed

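The authors deposited a stricter and a longer peak list, a footprint list and a cut-rate file for each library, made from that library alone on mm10, per the deposited file descriptions and the labels. Aligner, caller and filters are not stated in what was used here. The deposited signal of a peak was used unscaled. The deposited p-values are FDRs: the cut-rate files list them up to 0.05, and the footprint files give a constant 0.01, so footprints could not be ranked.

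Highest promoter signal, shared regions (peaks of both libraries joined at 1 bp) and shared footprints (overlap of 50% of the shorter one) were computed in Python 3.11.15 with pandas 2.3.3 and numpy 2.4.6, and the interval steps were tested on simulated data. A RefSeq promoter was found for 6 of 7 members, not for Slc38a1. Region sequences came from GRCm38.p6. All members were named, with the neighbours within 50 kb, the 2 genes most alike and up to 3 distal regions each; other distal regions were named after their values were seen. Members, lists and motifs were chosen with earlier results of these data known. Alternatives were window widths, peak lists, starts, overlaps and single libraries. Some genes of the lists and neighbours are not reported here by name. Depth is unknown, and 2 libraries limit the precision.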

Additional observations from a re-analysis of the deposited data

How the results depend on the processing

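No paired analysis was possible because there was 1 group. The count of 3 open members was 3 with 250 bp windows, basic or protein-coding starts and peak middles. At 1000 bp it was 4, with Slc38a1 added through a replicate 2 peak from 1603 to 1707 bp. The count was 5 at 2000 bp, where Slc17a7 was open through its upstream region, and 6 with the longer lists. In those lists the replicate 2 peak of Slc17a7 lay at its internal starts only. The count was 3 from replicate 2 alone and 6 from replicate 1 alone. Median promoter signal over the 7 members in replicate 1 was 1.76, but 3.89 when peaks were summed and 3.21 at 2000 bp. In replicate 2 it was 0, but 1.37 at 2000 bp and 0.855 with the longer lists. The 15 distal regions became 10 when regions within 2000 bp of any start were left out, 4 within genes and 26 at 100 kb. They became 17 to 27 in single libraries (27 in replicate 1). The 32 shared footprints became 64 to 106 footprints in single libraries. Slc17a8 was without a promoter peak in each of the settings tried. With the longer lists 6 astrocyte, 1 interneuron, 1 oligodendrocyte and 1 microglia marker were open, against 1, 0, 0 and 0. Over all results, 26 of 41 alternatives of counts and medians stayed within 1.5 times the count or the spread between libraries. For single members it was 92 of 133. For signals that spread was the standard deviation of the 2 library values, which is wide where 1 library has no peak. Slc17a7 in replicate 2 thus counted as unmoved when it went from 0 to 0.855 with the longer lists. The cause of the differences between settings was not tested. Depth, which would set what a missing peak means, is unknown.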

Other observations

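Slc1a2 stood apart from genes of similar strength. With 4.67 in replicate 1 it fell in the bin of genes of which 99% were open in both libraries, the bin that also held Glul, yet it had no stricter promoter peak in replicate 2. The longer list of replicate 2 had a peak of 1.10 there. Another gene of the pathway, Slc38a3, a glutamine carrier of astrocytes, had a stricter peak in replicate 2 only (0.758), with 1.18 in the longer list of replicate 1. Both were chosen after their values were seen, and the cause was not tested.

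The lists of a library were not nested. Of the stricter peaks, 777 in replicate 1 and 1046 in replicate 2 touched no peak of the longer list of the same library, among them a Glul peak in replicate 1 from 497 to 549 bp (1.07).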
